A study of Mus musculus with 4 samples.

Results

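The genes of the proteasome, the protease complex that degrades ubiquitin-tagged proteins, were measured by RNA-seq in mouse embryonic stem (ES) cells: 3 Morc3 rescue clones, named T131-3C, T131-3D and T131-3M, and a single wild-type library of the line wt26. The members were all genes of the count tables whose symbol starts with Psma to Psmg followed by a number, without pseudogenes. There were 50 such genes among the 24054 genes of the table. Each rescue line is a single clone, picked under puromycin after a PiggyBac transposon carrying wild-type Morc3 under a human PGK promoter had been put into the Morc3 knock-out clone KO27-2, which was itself made from wt26 with Cas9. All rescue cells therefore carry the same knock-out and the transgene, and wild-type cells carry neither. All cells were feeder-independent and grown in serum with LIF, a cytokine that keeps ES cells undifferentiated. As only 1 library is wild type, the spread between samples comes from the clones alone, and a difference of genotype cannot be told apart from a difference between cell lines or cultures.

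The proteasome has a barrel-shaped 20S core, built from rings of alpha subunits (Psma genes) and beta subunits (Psmb genes), and a 19S cap that recognizes ubiquitin, unfolds the substrate and threads it into the core. The cap consists of a base, with a ring of ATPases (Psmc genes), and a lid (several Psmd genes). Core and cap form the 26S proteasome, in which the subunits stand in fixed proportions, and cells short of proteasome activity raise most subunit genes together through the transcription factor Nfe2l1. In immune cells or after interferon, the catalytic subunits Psmb5, Psmb6 and Psmb7 are exchanged for Psmb8, Psmb9 and Psmb10, which gives the immunoproteasome. Pluripotent stem cells are known for high proteasome activity.

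By role, the members were 7 core alpha genes, 7 core beta genes, 6 base ATPases, 3 further base genes, 8 lid genes, 7 assembly chaperones, 3 immunoproteasome genes, 6 activators or inhibitors, the testis subunit *Psma8* and the thymus subunit *Psmb11*. The remaining 1, *Psmc3ip*, was taken in by its symbol only. It encodes a partner of the meiotic recombination machinery and no proteasome subunit, so it was kept out of the medians and the counts of called members. It was kept in the promoter search and in the recomputed fold changes. Its log2 fold change was -0.05. Of the other 49 genes, 47 had enough counts for the test, and *Psmb8* and *Psmb11* had not.

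Between 13620914 and 18789457 read pairs fell on genes in a library, the most in wild type. *Morc3*, the targeted gene, reached 161 CPM (counts scaled to library size) in wild type against 587 ± 81.5 CPM (SD, n = 3) over the clones, each of which was higher than wild type. The labelled cell type was checked with 8 ES cell markers, whose levels summed to 4763 CPM in wild type and to between 4913 and 5374 CPM in the clones. Each list of markers of trophoblast, primitive endoderm or blood cells summed to at most 7.97 CPM in any library, and *Ptprc* of blood cells was at 0 throughout. The highest of these sums was that of trophoblast in clone 3D, where *Eomes* alone had 7.83 CPM. The sum of 4 fibroblast markers was 32.9 CPM in wild type and from 20.3 to 45.0 CPM in the clones, mostly from *Thy1*, while *Dcn* was at 0.

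Matches in the promoters of these genes to a motif bound by Nfe2l1 are shown first, and binding itself was not measured. Nfe2l1 binds the antioxidant response element, searched here as TGACNNNGC on both strands from 250 bases before to 50 bases after each start site (RefSeq, GRCm38.p6). Promoters were found for 42 of the 50 genes. *Psmd3*, *Psmb1*, *Psma8*, *Psmg2*, *Psmb7*, *Psmc3*, *Psmb2* and *Psmd7* had no entry. The motif occurred in 6 of the 42, or 14.3%, and in 14% of all 27025 genes with an entry. The 6 matches are printed with flanking bases in the direction of the motif, which is in capitals.

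Psmb6, chr11:70525338-70525366, + strand: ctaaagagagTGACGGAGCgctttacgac

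Psmb5, chr14:54618024-54618052, - strand: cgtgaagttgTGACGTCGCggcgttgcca

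Psmc6, chr14:45329587-45329615, - strand: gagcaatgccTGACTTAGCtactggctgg

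Psmd12, chr11:107479278-107479299, - strand: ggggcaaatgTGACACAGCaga

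Psmd9, chr5:123228149-123228177, + strand: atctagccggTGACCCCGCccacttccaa

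Psme4, chr11:30771758-30771786, - strand: gctcttctggTGACGCTGCagccgcagcg

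*Psmb6* and *Psmb5* encode catalytic core subunits, *Psmc6* a base ATPase, *Psmd12* a lid subunit, *Psmd9* an assembly chaperone and *Psme4* the activator PA200. Relative to the start site, the motif was centred at -3 in *Psme4*, -5 in *Psmb6*, -27 in *Psmd9*, -43 in *Psmb5*, -223 in *Psmc6* and -243 in *Psmd12*. These letters were found in 0 of the 7 core alpha promoters and in 0 of the 3 immunoproteasome promoters.

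The first question was whether the complex as a whole differed between rescue and wild-type ES cells. Its summed RNA level, which was given no test, was nearly the same. The 31 members of the core, base and lid are called the 26S proteasome here. Genes with other symbols, *Adrm1* and *Shfm1* among them, fell outside the rule and were listed as partners of the complex. The 31 members summed to 5056 CPM in wild type, 5053 CPM in clone 3C, 5022 CPM in 3D and 4959 CPM in 3M. The 27 of them outside chromosomes 13 and 14 summed to 4623 CPM in wild type, and every clone was lower. Clone 3C had 4511 CPM, 3D 4520 CPM and 3M 4416 CPM. Over all 31, the log2 fold changes (rescue against wild type) lay between -0.14 and 0.36. All 31 were under 0.5 in size, as were 85.8% of all 13267 genes tested.

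No member passed an adjusted p of 0.01 in the quasi-likelihood test of edgeR, where 0.00754% of all genes were called. An unadjusted p under 0.05 was reached by 4 of the 47 members, against 10.3% of all genes. These were *Psmc6*, *Psmd6*, *Psme2* and *Psmd7*, all with higher values in the clones. All but *Psmd7* lie on chromosome 14, where 229 of 465 tested genes reached it, all with higher values in the clones. Outside chromosomes 13 and 14 it was reached by 1 of 40 members and by 1061 of 12235 tested genes. DESeq2, the tool of the study, also called no member (0.475% of all genes), and its lowest unadjusted p among them was 0.0045, for *Psmc6*.

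The median log2 fold change over the 47 members was -0.05, against 0.005 over all genes tested. Clone by clone, the median difference from wild type was -0.02 in 3C, -0.03 in 3D and -0.06 in 3M. There were 11 members with every clone above wild type, or 23.4%, where 28.7% of all genes had this. There were 21 members with every clone below it, or 44.7%, where 28.4% of all genes had this. These 2 counts depended on the scaling and were 12 and 19 when chromosomes 13 and 14 were left out of the TMM factors. The differences were small. For the 27 subunits of the 26S proteasome outside chromosomes 13 and 14, the median was -0.06 and the SD over genes 0.08. Each value was under 0.25 in size, as were 70.4% of all tested genes outside these chromosomes.

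**Figure D1:**
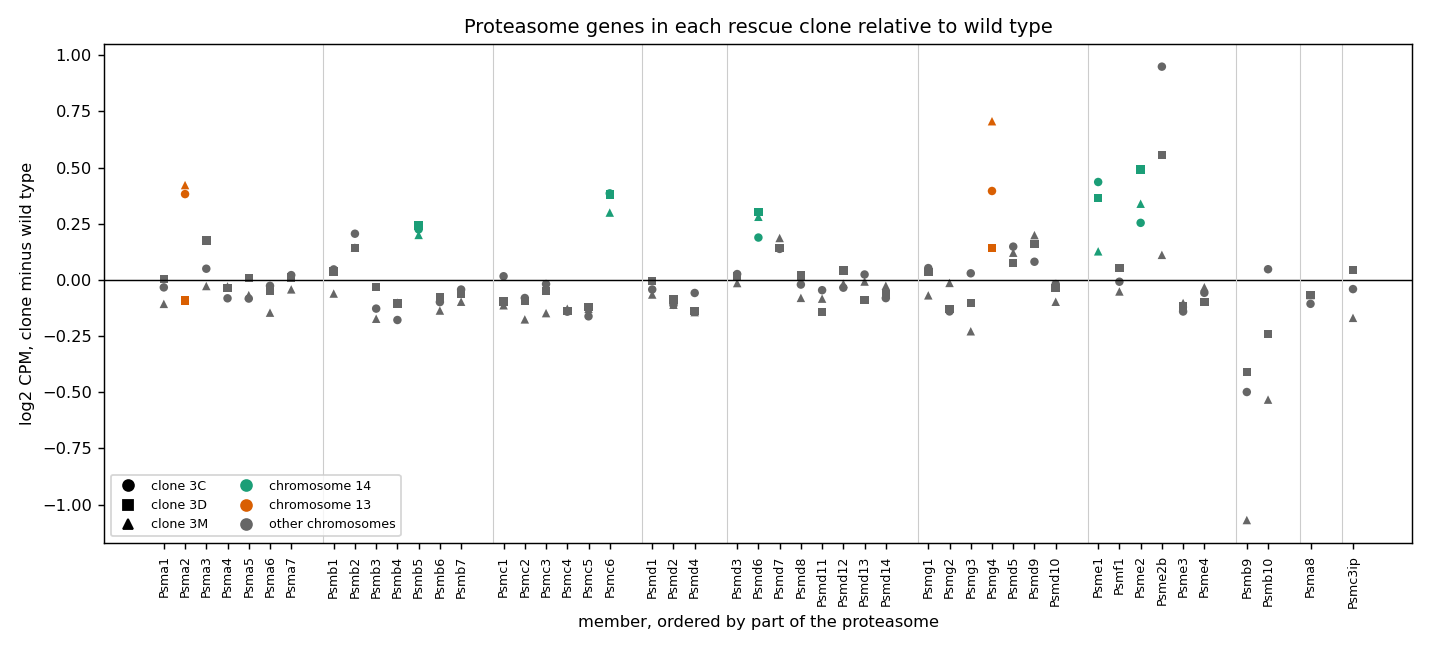
Difference in log2 CPM between each rescue clone and wild type (vertical axis) for the 47 tested members and *Psmc3ip* (horizontal axis, grouped by part of the proteasome), with 1 point per clone. Members on chromosome 14 lie above 0 in every clone, members on chromosome 13 are highest in clones 3C and 3M, and most others lie close to 0.

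The second question was whether subunits on chromosomes 14 and 13 depart from the rest, and those on chromosome 14 had higher values in every clone. Chromosome 14 carries *Psmd6*, *Psmc6*, *Psmb5*, *Psmb11*, *Psme1* and *Psme2*. The 5 that could be tested had log2 fold changes between 0.22 and 0.37, with a median of 0.31. The 40 tested members outside chromosomes 13 and 14 had a median of -0.06, with 5 (12.5%) above wild type in every clone and 21 (52.5%) below, where all tested genes outside these chromosomes had a median of -0.01, with 25.9% above and 30.3% below. Within the 26S proteasome the ranges did not overlap. The 3 subunits on chromosome 14 lay between 0.22 and 0.36, and 27 subunits outside chromosomes 13 and 14 between -0.14 and 0.16. Over all members they did overlap, as the 40 outside these chromosomes lay between -0.79 and 0.59. All tested genes overlapped as well, from -1.10 to 5.46 on chromosome 14 and from -8.37 to 6.96 outside chromosomes 13 and 14. Over all 465 tested genes of chromosome 14 the median was 0.35, and 78.5% had every clone above wild type. The median of the chromosome 14 members was thus closer to that of their chromosome than to that of the other members. This difference between chromosomes was given no test, because an exact permutation of 1 library against 3 cannot go below p = 0.25.

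*Psmc6* encodes an ATPase of the ring that unfolds substrates and lies at chr14:45329823-45349074 (GRCm38). Wild type had 148 CPM, clone 3C 193 CPM, 3D 192 CPM and 3M 182 CPM. All clones stood above wild type and close to each other. The log2 fold change was 0.36 ± 0.07 (standard error), with an unadjusted p of 0.0033 and an adjusted p of 0.22 (edgeR). Leaving out clone 3D gave an adjusted p of 0.020, and leaving out 3M gave 0.72.

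None of the other 5 ATPases lies on chromosome 13 or 14, and their log2 fold changes were between -0.14 and -0.06. *Psmc5* had 162 CPM in the wild-type library, and 145 CPM (3C), 149 CPM (3D) and 148 CPM (3M) in the clones. *Psmc4* had 211 CPM in the wild-type library, and 192 CPM (3C), 192 CPM (3D) and 193 CPM (3M) in the clones. For both, every clone was below wild type, with log2 fold changes of -0.14 and adjusted p values of 0.55 and 0.53 (edgeR).

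*Psmd6*, a lid subunit at chr14:14112185-14120945, was at 110 CPM in wild type, 126 CPM in 3C, 136 CPM in 3D and 134 CPM in 3M, so no clone overlapped with wild type. Its log2 fold change was 0.26 ± 0.08 (standard error), with an adjusted p of 0.39 (edgeR). *Psmb5*, at chr14:54614120-54617995, encodes the core subunit with chymotrypsin-like activity, the main target of inhibitors such as bortezomib. It was at 37.2 CPM in wild type, 43.5 CPM in 3C, 44.0 CPM in 3D and 42.7 CPM in 3M. The clones were close together and all above wild type, and the log2 fold change was 0.22 ± 0.09 (standard error), with an adjusted p of 0.49 (edgeR). *Psmb5* overlaps *Mir686* on the same strand. Read pairs that fall on both genes are not counted, and how many these were was not measured.

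*Psme1* and *Psme2* encode the alpha and beta subunits of PA28, an interferon-induced activator that caps the core in place of the 19S particle. They are neighbours, at chr14:55578494-55581527 and chr14:55587440-55591101. *Psme1* was at 54.5 CPM in wild type, 73.7 CPM in 3C, 70.2 CPM in 3D and 59.5 CPM in 3M. *Psme2* was at 21.8 CPM in wild type, 26.04 CPM in 3C, 30.7 CPM in 3D and 27.6 CPM in 3M. Every clone was above wild type for both genes, and the lowest clone was 3M for *Psme1* and 3C for *Psme2*. The log2 fold changes were 0.31 ± 0.14 and 0.37 ± 0.14 (standard error), and the adjusted p values 0.51 and 0.45 (edgeR). *Psme1* overlaps *Emc9* on the opposite strand. *Psme2* has a near-identical copy on chromosome 11, *Psme2b*, and read pairs that map to both are not counted, so both values are uncertain. *Psme2b*, which also shares exons with *9930111J21Rik1*, had 34 counts in wild type, 48 in 3C, 39 in 3D and 30 in 3M. Scaled to library size these were 1.78, 3.56, 2.68 and 1.94 CPM, so that every clone was above wild type, 3M by little. Its log2 fold change was 0.59 ± 0.42 (standard error), with an adjusted p of 0.65 (edgeR), and 0.37 without clone 3C.

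Other genes near these members also had higher values in the clones. Around *Psmc6*, 18 other genes within 2 Mb had median log2 differences from wild type of 0.42 (3C), 0.36 (3D) and 0.31 (3M), where *Psmc6* itself had 0.39, 0.38 and 0.30. Around *Psmb5*, 59 genes had medians of 0.28, 0.28 and 0.30, and *Psmb5* had 0.22, 0.24 and 0.20. Around *Psmd6*, where 6 genes could be tested, the medians were 0.37, 0.42 and 0.44, and *Psmd6* had 0.19, 0.30 and 0.28. The 70 genes around *Psme1* and *Psme2* had medians of 0.28, 0.26 and 0.28. Every clone was above wild type for 15 of the 18 genes around *Psmc6*, 44 of the 59 around *Psmb5*, 3 of the 6 around *Psmd6* and 52 of the 70 around *Psme1* and *Psme2*, beside the 78.5% of the whole chromosome. What part the neighbourhood has in the level of a member was not tested.

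On chromosome 13 the clones differed from each other. *Psma2*, a core alpha subunit at chr13:14613242-14625673, was at 138 CPM in wild type, 180 CPM in 3C, 129 CPM in 3D and 185 CPM in 3M. Clones 3C and 3M were high, and 3D was slightly below wild type. The log2 fold change was 0.26 ± 0.21 (standard error), with an adjusted p of 0.70 (edgeR). Without clone 3D it was 0.40 with an adjusted p of 0.0077, and *Psma2* was then the 1 member called, where 3.17% of all genes were. Without 3C it was 0.19 with an adjusted p of 0.81, and without 3M 0.16 with an adjusted p of 0.95. *Psmg4*, at chr13:34162964-34178172, encodes a chaperone for assembly of the alpha ring. It was at 14.6 CPM in wild type, 19.3 CPM in 3C, 16.2 CPM in 3D and 23.9 CPM in 3M, so that 3D was the lowest clone here too. The log2 fold change was 0.44 ± 0.23 (standard error), with an adjusted p of 0.57 (edgeR). Without 3M it was 0.27 with an adjusted p of 0.92, and without 3D 0.57 with an adjusted p of 0.076.

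Neighbours of both genes had their lowest median in 3D. The 11 genes within 2 Mb of *Psma2* had median log2 differences of 0.51 (3C), 0.12 (3D) and 0.54 (3M), and the 18 genes around *Psmg4* had 0.67, 0.16 and 0.69. Over all 512 tested genes of chromosome 13 the medians were 0.48, 0.03 and 0.48.

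**Figure D2:**
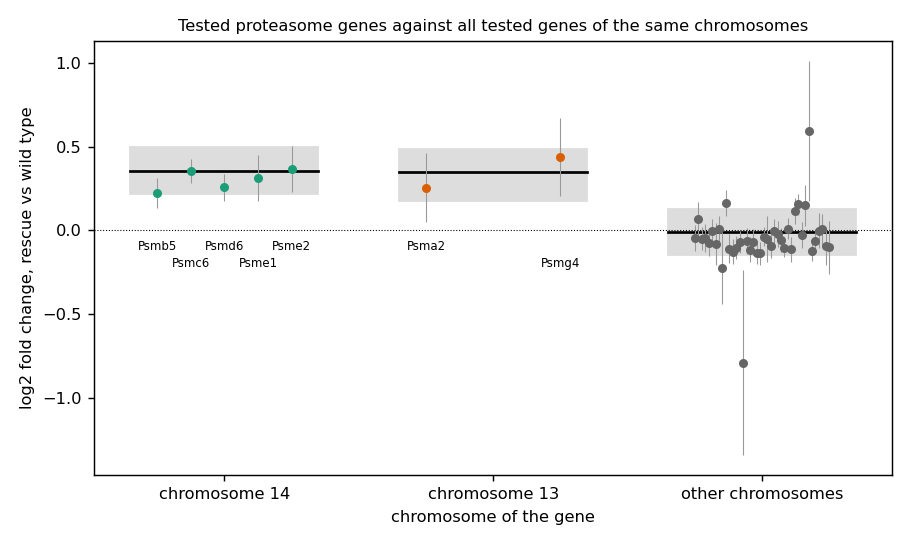
Log2 fold change of rescue against wild type (vertical axis) for each of the 47 tested members (points, with standard errors from edgeR) by chromosome (horizontal axis). Grey boxes span the quartiles and black lines mark the medians of all tested genes, at 0.35 for chromosome 14, 0.35 for chromosome 13 and -0.01 for the others.

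The share of a gene in the counts of its ring or part does not depend on how libraries are scaled. *Psmc6* made up 13.9% of ATPase counts in wild type (95% interval 13.4% to 14.4%), 18.2% in 3C, 18.4% in 3D and 17.9% in 3M, where the lowest interval began at 17.3%. *Psmb5* made up 4.68% of core beta counts in wild type (4.35% to 5.02%), 5.56% in 3C, 5.58% in 3D and 5.61% in 3M, where the lowest interval began at 5.13%. *Psmd6* made up 8.25% of lid counts in wild type (7.91% to 8.59%), 9.19% in 3C, 9.94% in 3D and 9.76% in 3M, where the lowest interval began at 8.78%. For these genes the interval of wild type lay below those of the clones. The same held for *Psmb2* on chromosome 4, with 11.4% to 12.4% of core beta counts in wild type, where the lowest clone interval began at 12.6%. It also held for *Psmd7* on chromosome 8, with 19.7% to 20.7% of lid counts in wild type, where the lowest clone interval began at 21.1%. *Psma2* made up 16.6% of core alpha counts in wild type (16.0% to 17.2%), 20.9% in 3C, 15.7% in 3D (15.0% to 16.3%) and 21.9% in 3M. The intervals are exact (Clopper-Pearson) and cover counting error only, not the difference between cultures.

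**Figure D3:**
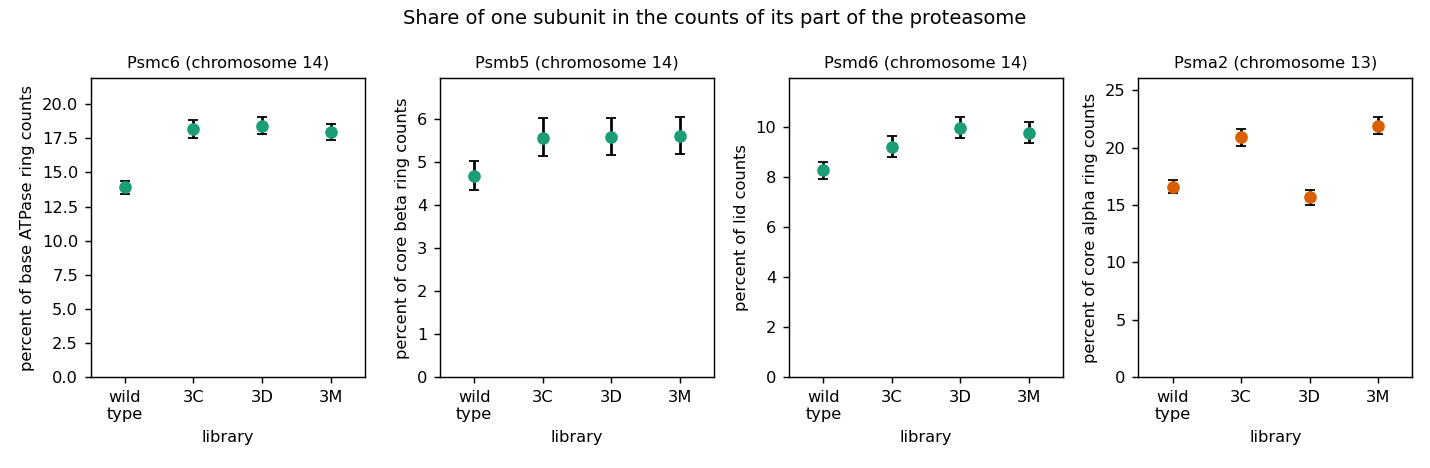
Percent of the counts of a part of the proteasome that fell on 1 of its genes (vertical axes) in each library (horizontal axes), with exact 95% intervals for counting error. *Psmc6*, *Psmb5* and *Psmd6* of chromosome 14 are higher in all 3 clones than in wild type, and *Psma2* of chromosome 13 is higher in clones 3C and 3M.

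The rest of the 20S core was close to wild type. Besides *Psma2*, the 6 core alpha genes had log2 fold changes between -0.07 and 0.07, and *Psma4* and *Psma6* were below wild type in every clone. In the core beta ring, *Psmb4*, a structural subunit, was at 137 CPM in wild type, 121 CPM in 3C, 127 CPM in 3D and 127 CPM in 3M (log2 fold change -0.13, adjusted p = 0.59, edgeR). The catalytic subunit *Psmb6* was at 145 CPM in wild type, 135 CPM in 3C, 137 CPM in 3D and 132 CPM in 3M. *Psmb7*, likewise catalytic, was at 172 CPM in wild type, 167 CPM in 3C, 165 CPM in 3D and 161 CPM in 3M. All clones were below wild type for these genes and for *Psmb3*, by small amounts.

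*Psmb2*, a structural beta subunit on chromosome 4, was the other core gene with every clone above wild type. It was at 94.5 CPM in wild type, 109 CPM in 3C, 104 CPM in 3D and 105 CPM in 3M (log2 fold change 0.16 ± 0.08, standard error; edgeR gave an adjusted p of 0.53). Its share of core beta counts was 11.9% in wild type and 13.6 ± 0.37% (SD, n = 3) over the clones. The alpha genes summed to 832 CPM in wild type against 844 ± 17.2 CPM over the clones, and the beta genes to 795 and 777 ± 13.7 CPM.

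In the 19S cap, the further base genes *Psmd1* and *Psmd2*, its large scaffolds, and *Psmd4*, a ubiquitin receptor, were below wild type in every clone, with log2 fold changes of -0.04, -0.10 and -0.11. Together they summed to 1029 CPM in wild type against 979 ± 13.4 CPM (SD, n = 3) over the clones. The 8 lid genes summed to 1338 CPM in wild type against 1371 ± 3.51 CPM over the clones. Apart from *Psmd6*, the lid gene with every clone above wild type was *Psmd7*, the partner of the deubiquitinase Psmd14, at chr8:107580380-107588482. *Psmd7* was at 270 CPM in wild type, 297 CPM in 3C, 298 CPM in 3D and 308 CPM in 3M (log2 fold change 0.16 ± 0.06, standard error; unadjusted p = 0.049, adjusted p = 0.48, edgeR). Its share of lid counts was 20.2% in wild type, 21.7% in 3C, 21.8% in 3D and 22.4% in 3M. *Psmd14* had a log2 fold change of -0.06 and *Psmd11* of -0.09, and *Psmd3*, *Psmd8*, *Psmd12* and *Psmd13* lay between -0.03 and 0.01.

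Assembly chaperones build the complex and are absent from the finished particle. *Psmg1*, *Psmg2* and *Psmg3*, chaperones of the core, had log2 fold changes between -0.10 and 0.01. Among chaperones of the base, *Psmd5* and *Psmd9* had every clone above wild type, and *Psmd10* (gankyrin) every clone below. *Psmd9* was at 18.9 CPM in wild type, 20.03 CPM in 3C, 21.2 CPM in 3D and 21.8 CPM in 3M, with a log2 fold change of 0.15 and an adjusted p of 0.71 (edgeR).

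Of the activators and inhibitors outside chromosome 14, *Psme3* (PA28 gamma, a nuclear activator) was at 240 CPM in wild type, 217 CPM in 3C, 221 CPM in 3D and 223 CPM in 3M. *Psme4* was at 348 CPM in wild type, 334 CPM in 3C, 325 CPM in 3D and 340 CPM in 3M. Every clone was below wild type for both, with log2 fold changes of -0.12 and -0.06. *Psmf1*, the inhibitor PI31, was at 31.8 CPM in wild type against 31.7 ± 1.17 CPM (SD, n = 3) over the clones.

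Of the immunoproteasome subunits, only *Psmb10* had more than 13 counts in any library. *Psmb8* had 1 count in wild type, 1 in 3C, 2 in 3D and 3 in 3M, and a difference was not detectable at this depth. *Psmb9* had 13 counts in wild type, 6 in 3C, 7 in 3D and 4 in 3M, its log2 fold change being -0.79 ± 0.55 (standard error from edgeR, with 0.65 as its adjusted p). *Psmb8* made up 0.14% of its pair with *Psmb5* in wild type (95% exact interval 0.0036% to 0.78%) and at most 0.45% in a clone. *Psmb9* made up 0.47% of its pair with *Psmb6* in wild type (0.25% to 0.80%) and between 0.20% and 0.35% in the clones. *Psmb9* overlaps *Tap1* on the opposite strand.

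*Psmb10*, the inducible counterpart of the trypsin-like subunit *Psmb7*, was at 33.3 CPM in wild type, 34.4 CPM in 3C, 28.2 CPM in 3D and 23.0 CPM in 3M. The clones lay on both sides of wild type, and the log2 fold change was -0.23 ± 0.21 (standard error from edgeR, with 0.75 as its adjusted p). It was -0.38 without clone 3C and -0.09 without 3M. *Psmb10* made up 16.2% of its pair with *Psmb7* in wild type (15.0% to 17.4%), 17.1% in 3C, 14.6% in 3D and 12.5% in 3M. Per transcript length the share was 29.6% in wild type and from 23.6% to 30.9% in the clones.

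Of the tissue-restricted subunits, *Psma8* had 320 counts in wild type, 210 in 3C, 233 in 3D and 248 in 3M, or 16.8 CPM in wild type against 15.9 ± 0.25 CPM (SD, n = 3) over the clones. *Psmb11* had 2 counts in wild type, 0 in 3C, 1 in 3D and 0 in 3M.

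Levels of different genes were compared as CPM per kb of the longest annotated transcript. In wild type, the lid genes lay between 62.4 (*Psmd11*) and 171 CPM per kb (*Psmd7*), the core beta genes between 41.4 (*Psmb5*) and 150 CPM per kb (*Psmb6*), and the core alpha genes between 24.8 (*Psma3*) and 135 CPM per kb (*Psma6*). The ends of these ranges depended on the transcript taken. With the median length of a gene's transcripts, the alpha genes lay between 64.7 (*Psma2*) and 166 CPM per kb (*Psma6*), a 2.56-fold range in place of 5.45-fold, and *Psmd11* turned from the lowest to the highest lid gene, at 283 CPM per kb. *Psmb5*, whose counts leave out read pairs shared with *Mir686*, was the lowest core beta gene with either length, in wild type and over the clones. By the longest transcript it was at 48.3 ± 0.70 CPM per kb (SD, n = 3) over the clones. The chaperones had a median of 19.8 CPM per kb in wild type. *Psmb10*, with 25.4 CPM per kb in wild type, lay within the range of the chaperones. The order of single genes was not tested.

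**Figure D4:**
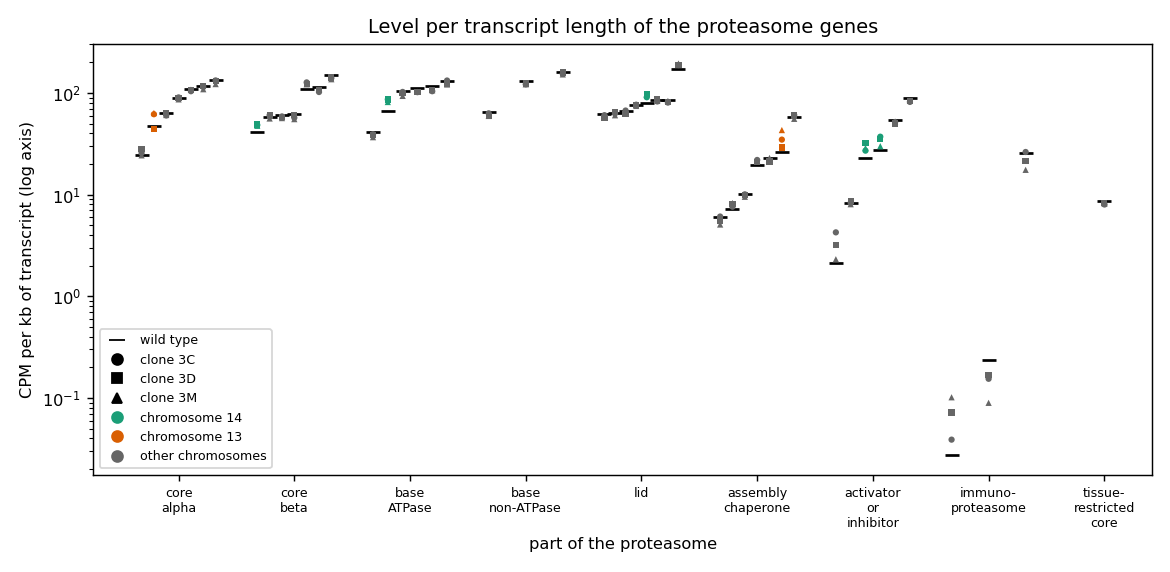
CPM per kb of the longest transcript (vertical log axis) in wild type (black dashes) and each rescue clone (points) for every member except *Psmb11* and *Psmc3ip*, grouped by part of the proteasome (horizontal axis). Core, base and lid genes lie between 24.8 and 171 CPM per kb in wild type, and *Psmb8* and *Psmb9* lie below all other genes shown.

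Genes that work with the proteasome were described as lists. Beside them, 1 of all 13267 tested genes passed the test, 6780 had a log2 fold change above 0 and 6487 below, and the median was 0.005. Of 16 partners of the complex, 0 passed the test, 6 had a log2 fold change above 0 and 10 below, and the median was -0.03. Nfe2l1 and its relative Nfe2l2, the regulators of subunit transcription, had gene log2 fold changes of -0.09 (*Nfe2l1*) and 0.20 (*Nfe2l2*), and *Pomp*, a maturation factor of the core, -0.08. *Ngly1*, the glycanase that processes Nfe2l1, lies on chromosome 14. It had 113 counts in wild type, 121 in 3C, 148 in 3D and 114 in 3M. Scaled to library size these were 5.92, 8.98, 10.2 and 7.36 CPM. Its log2 fold change was 0.57 ± 0.24 (standard error from edgeR, with 0.50 as its adjusted p). Of 16 genes of ubiquitin supply and substrate delivery, 0 passed the test, 7 were above 0 and 9 below, and the median was -0.02. *Ubqln1*, a shuttle factor on chromosome 13, had 261 CPM in wild type, 394 CPM in 3C, 268 CPM in 3D and 400.2 CPM in 3M.

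The immunoproteasome is induced together with genes of antigen presentation. Of 12 interferon and MHC class I genes, 0 passed the test, 8 were above 0 and 4 below, and the median was 0.13. Over all tested genes 6780 were above 0 and 6487 below. Those above 0 in the list include *Irf9* on chromosome 14, where 427 of 465 tested genes were above 0. They also include *Erap1* on chromosome 13, where 448 of 512 were. *Irf9*, on chromosome 14, had an unadjusted p of 0.034, with 18.9 CPM in wild type, 22.6 CPM in 3C, 25.7 CPM in 3D and 27.8 CPM in 3M (log2 fold change 0.43 ± 0.15, standard error; edgeR gave an adjusted p of 0.44). *Tap1* and *Tap2*, the peptide transporter genes beside *Psmb8* and *Psmb9*, had at most 24 counts in a library. *Erap1*, on chromosome 13, was at 2.94 CPM in wild type, 4.38 CPM in 3C, 4.33 CPM in 3D and 3.74 CPM in 3M. Unlike for *Ubqln1*, its lowest clone was 3M.

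Read pairs on the strand opposite to a member were few. Over the 4 libraries there were 60 for *Psmd7*, or 0.33%, 30 for *Psmb10*, or 1.61%, and 80 for *Psmc3ip*, or 10.9%, which overlaps *Mlx* on the opposite strand.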

How the data were processed

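RNA-seq of 3 Morc3 rescue clones and 1 wild-type library was used. The authors depleted rRNA, prepared directional libraries, sequenced 50 bp paired ends and aligned them to mm10 with STAR, which counted read pairs. The deposited values are raw counts (reverse-strand column used), and the sources used here do not name the gene annotation. Rows without a gene were left out: 23.6% to 24.7% of read pairs had no feature and 7.85% to 8.21% mapped to several places. The share that did not map was 14.5% in wild type and 21.0% to 23.0% in the clones. The share on genes was 52.7% in wild type and 45.1% to 47.0% in the clones, so the libraries differed along the comparison.

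All 13267 genes kept by filterByExpr were fitted with edgeR 4.0.16 (glmQLFit and glmQLFTest, TMM) under R 4.3.3, with Benjamini-Hochberg adjustment and the adjusted p of 0.01 of the study. Standard errors are the size of the log2 fold change over the square root of F. Clone differences in log2 CPM use a prior count of 2. DESeq2 1.42.0, limma-voom (limma 3.58.1), edgeR's legacy method, other scalings and filters, the unstranded column and leaving out each clone were alternatives. The fit was also run on simulated counts with planted changes larger than those of the members. Recovery of changes as small as those of the members was not tested. The clones descend from 1 knock-out clone, so p-values measure the spread between these clones only. No libraries agreed within counting noise. Genes were placed with RefSeq (GRCm38.p6; of 24054 symbols 22542 matched directly and 1352 by a synonym), and lengths came from GENCODE M21.

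The members and lists were chosen with earlier results of these data known. Described in full by rule were members on chromosomes 13 and 14, the immunoproteasome genes and their constitutive partners, the 5 highest and 5 lowest fold changes, and members with an unadjusted p under 0.05. Neighbours within 2 Mb, shares of a part and levels by median transcript length were added after values were seen, as was *Psmb2*.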

Additional observations from a re-analysis of the deposited data

How the results depend on the processing

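No paired analysis was possible because wild type is 1 library and replicate numbers only name the clones. Depth limits *Psmb8*, *Psmb9*, *Psmb11* and *Psme2b*, and the lone wild-type library limits every test. The count of called members was 0 in each alternative with all clones, an adjusted p of 0.05 included, and ranged from 0 to 1 on leaving out a clone (*Psma2*, without 3D). The count over all genes, 1 in the report, was 63 by DESeq2, 0 by limma-voom, 0 by edgeR's legacy method and 0 with 10 counts required in every library. It ranged from 0 to 420 on leaving out a clone, with 420 without 3D. On leaving out a clone, the median of chromosome 14 members ranged from 0.29 to 0.38, that of chromosome 13 members from 0.22 to 0.48 and that of the other chromosomes from -0.066 to -0.037. With library totals after removal of genes over 1% of counts, the median over all members was -0.074 and that of the other chromosomes -0.087. The log2 ratios of summed levels were then -0.061 for core beta, -0.10 for further base genes, 0.0075 for the lid, 0.039 for chaperones, -0.055 for activators and inhibitors, -0.040 for the 26S proteasome and -0.072 for its part outside chromosomes 13 and 14. With TMM factors made without chromosomes 13 and 14, they were 0.051 for the lid, -0.012 for activators and inhibitors and 0.0030 for the 26S proteasome, which was -0.01 in the report's scaling and so changed sign. The counts of members above and below wild type in every clone, 11 and 21, were 12 and 19 with these factors, 11 and 28 with the totals, and 11 and 21 with DESeq2's size factors, alternatives chosen after seeing the data. Of 575 recomputed fold changes of 48 members, *Psmc3ip* included, 564 moved by less than the SD between clones. A change of sign was seen in 17, of 8 members the largest at 0.054 in size (*Psmc3ip*). The causes were not tested.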
